A study of Caenorhabditis elegans with 3 samples.

Results

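Genes that build, sort or deliver the contents of Caenorhabditis elegans sperm were compared between oocyte-making and sperm-making animals. The list holds 9 genes, chosen by name: fer-1, fer-14, spe-4, spe-5, spe-10, spe-15, spe-26 and spe-39, which act in the fibrous body-membranous organelles or in the sorting of cell contents during spermatogenesis, and spe-11, whose product is carried by the sperm into the egg. Of these, 6 had a spot of their own among 14943 named genes (fer-1, spe-4, spe-11, spe-15, spe-26 and spe-39), spe-10 was found on 2 spots that also name a different gene, and no spot was found under the names of spe-5 or fer-14, which were not analysed here.

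RNA of fem-1(lf) animals and RNA of fem-3(gf) animals were labelled and compared on 3 arrays of 2 colours, with preps 1 to 3 of each genotype. In fem-1(lf), loss of function of a sex determination gene needed for male fates leaves the germ line of XX animals with oocytes in place of sperm. In fem-3(gf), gain of function of another such gene keeps the germ line making sperm, with no switch to oocytes. The labels give no allele, temperature, age, growth stage or tissue, and name no wild-type control. They do not say that preps were separate cultures, so a p-value covers just the variation among 3 arrays, possibly technical.

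Each value is the log2 of the ratio of the 2 channels. A positive value likely means more RNA in fem-1(lf), since the descriptions put fem-1(lf) before fem-3(gf) and the dyes are not stated. The labels put each genotype in the same channel on every array, so an effect of the channel cannot be told apart from one of genotype. Marker genes went with this reading: all 30 measured msp genes, which encode the major sperm protein, were below 0 with a list median of -6.19, and all 8 oocyte markers were above 0 with a list median of 2.90. The directions below rest on that reading. A ratio from whole preps cannot tell fewer cells of a type from less RNA per cell. The medians of 48 muscle, intestine, cuticle and neuron genes, called body genes here since they mark tissues outside the germ line, were -0.53, -0.42 and -0.25 on the arrays of preps 1, 2 and 3, and their part in the values below was not tested.

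During spermatogenesis the major sperm protein is packed as fibrous bodies, each wrapped by a membranous organelle that derives from the Golgi apparatus. The complexes move into the budding spermatids while ribosomes, actin and tubulin stay behind in a residual body. When the spermatid is activated, the membranous organelles fuse with the plasma membrane and the freed major sperm protein drives the crawling pseudopod.

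Of the 6 members with their own spots, 5 were higher in fem-3(gf), each by more than 8-fold on the scale as deposited. The remaining member, spe-39, was higher in fem-1(lf) by 1.45-fold. Calls were made with limma at an adjusted p under 0.05 across 19719 features, of which 23.7% were called higher in fem-3(gf) and 21.0% higher in fem-1(lf). After each array was centred on the body genes introduced above, the share of all calls that were higher in fem-1(lf) was 77.3%, against 47.1% on the deposited scale. The body genes were themselves mixed. On the deposited scale 22 of the 48 were called higher in fem-3(gf) and 2 higher in fem-1(lf), with means from -2.74 to 2.07. Calls of at least 8-fold on the fem-3(gf) side made up 4.68% of the features. The median of the member means was -3.38, against -0.10 for all features. These genes were known to act in sperm when they were listed, so their count on the fem-3(gf) side describes the members and is no independent sign of the direction of the ratio.

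**Figure D1:**
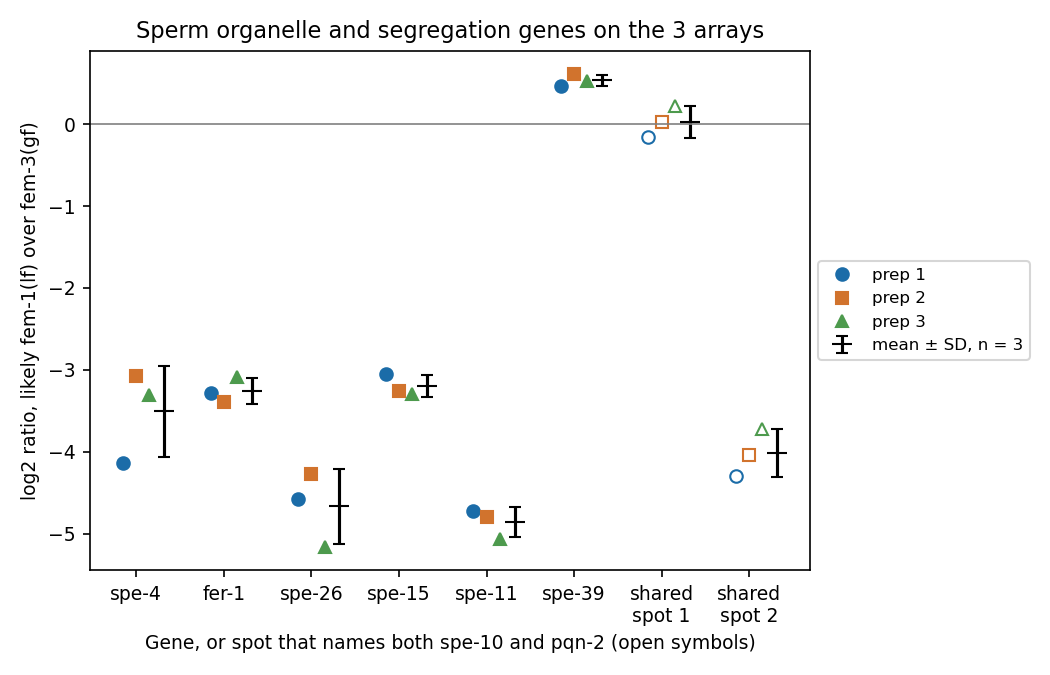
Log2 ratio of each member gene on each array (filled symbols, prep 1 circle, prep 2 square, prep 3 triangle) and of the 2 spots that name both spe-10 and pqn-2 (open symbols), with the mean and SD of 3 arrays in black. The values of spe-4, fer-1, spe-26, spe-15 and spe-11 lie between -5.16 and -3.05, those of spe-39 lie above 0, and the 2 shared spots lie apart.

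Among the genes of the organelle itself, spe-4 and fer-1 lay close together. The gene spe-4 (ZK524.1, chromosome I) encodes a presenilin-type membrane protein needed to keep fibrous body and membranous organelle together. Its log2 ratios were -4.13, -3.07 and -3.31 on the arrays of preps 1, 2 and 3. Prep 1 lay apart from the other arrays, and the range of 1.06 was the widest of the 6 members. The mean was -3.50 ± 0.56 (SD, n = 3), which is 11.3-fold higher in fem-3(gf) (limma adjusted p = 0.000144). Without prep 1 the mean was -3.19.

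The gene fer-1 (F43G9.6, chromosome I) encodes the founding member of the ferlins, proteins with calcium-binding domains, and is needed for the fusion of the membranous organelles with the plasma membrane. Its log2 ratios were -3.28, -3.40 and -3.08, so that on every array the ratio of fem-1(lf) to fem-3(gf) lay between 0.095 and 0.118. The fold was 9.53 (limma adjusted p = 2.47e-05). Within arrays, fer-1 minus spe-4 was 0.85, -0.32 and 0.22, a mean of 0.25 ± 0.59, so the sign changed between arrays.

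The genes of component sorting lay at different depths. The gene spe-15 (F47G6.4, chromosome I) encodes a myosin VI, a motor that walks towards the minus end of actin filaments, and acts in moving components apart when spermatids bud. Its log2 ratios were -3.05, -3.25 and -3.29, with a mean of -3.20 ± 0.13 (SD, n = 3), or 9.17-fold higher in fem-3(gf) (limma adjusted p = 2.37e-05). Its values overlapped with those of fer-1, and fer-1 minus spe-15 averaged -0.06 ± 0.23 over the arrays, a difference smaller than its SD.

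The gene spe-26 (R10H10.2, chromosome IV) encodes a protein with kelch repeats, a motif found in proteins that bind actin, and mutants fail to sort cell contents into spermatids. Its log2 ratios were -4.57, -4.27 and -5.16. Prep 3 was the lowest, at a ratio of 0.028, where a step of 0.001 in the rounded ratios shifts the log2 value by 0.05. The mean was -4.67 ± 0.45 (SD, n = 3), or 25.4-fold higher in fem-3(gf) (limma adjusted p = 2.99e-05). On every array spe-26 lay below spe-15, by 1.53, 1.01 and 1.87.

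The paternal gene spe-11 (F48C1.7, chromosome I) had the lowest mean of the 6 members. Its protein is supplied by the sperm and is needed by the new embryo for a normal eggshell and meiotic divisions. The log2 ratios were -4.72, -4.80 and -5.06, or ratios of 0.038, 0.036 and 0.030. The arrays thus lay within 0.34 of each other. The mean was -4.86 ± 0.18 (SD, n = 3), which is 29.0-fold higher in fem-3(gf) (limma adjusted p = 1.19e-05) and 232nd from the lowest of all 19719 features. The difference between spe-11 and spe-15 was alike on the arrays, at -1.67, -1.54 and -1.77.

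The gene spe-39 (ZC404.3, chromosome V) stood on the other side. It is needed for the fine structure of the membranous organelles, but its protein is conserved in mammals and serves in vesicle trafficking to lysosomes in many cells, as a partner of the HOPS tethering machinery. Its log2 ratios were 0.47, 0.61 and 0.53, all above 0 and within 0.14 of each other. The mean was 0.53 ± 0.07 (SD, n = 3, limma adjusted p = 0.014), and 18.8% of the features lay at or above it. The call was lost in limma without prep 2 (0.50, adjusted p = 0.076) and without prep 3 (0.54, adjusted p = 0.085). The value depended on where 0 was set, at 0.93 after each array was centred on the body genes.

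Within arrays, spe-39 lay above each of the other 5 members. The mean difference from spe-39 was -3.73 for spe-15, the nearest, and -5.39 for spe-11, the farthest, and such differences do not depend on the centring. Over all 15 pairs of members, 11 differed in the same direction on every array. Pairs with spe-39 did so because it lay above 0, and the other 5 members below 0, on every array. Among the 10 pairs without spe-39, 6 kept their direction. The 4 pairs that did not were fer-1 with spe-4, fer-1 with spe-15, spe-4 with spe-15, and spe-11 with spe-26. By their means, the 5 genes high in fem-3(gf) fell at 2 depths. Those of spe-15, fer-1 and spe-4 were at -3.20 to -3.50, and those of spe-26 and spe-11 at -4.67 to -4.86. This grouping was seen in the values and was not tested.

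**Figure D2:**
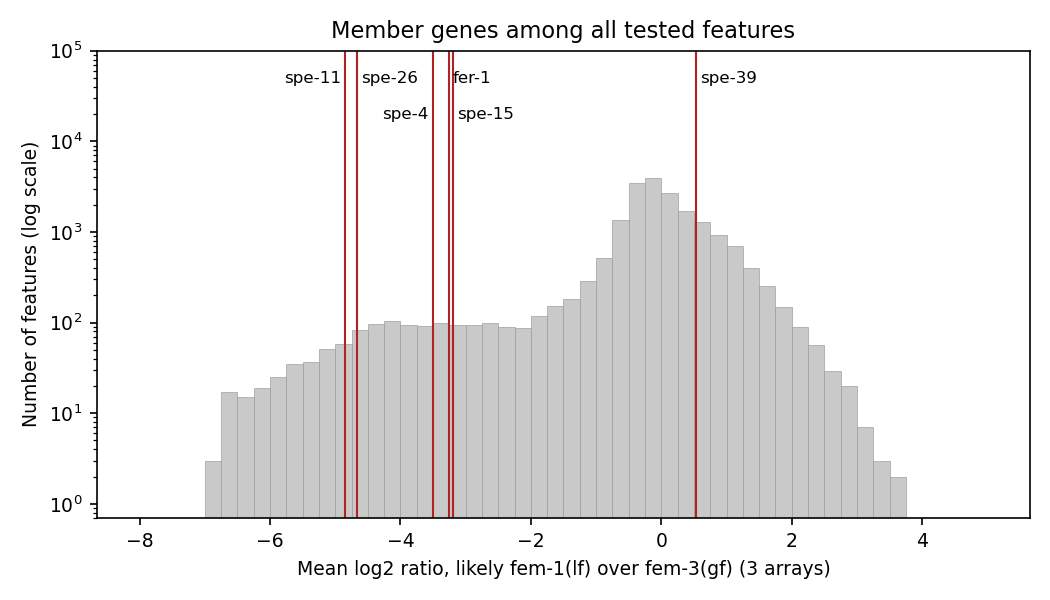
Number of features (log scale) by mean log2 ratio over 3 arrays, in bins of 0.25, with a red line for each member gene. The bulk of the 19719 features lies around 0, with a shoulder reaching to the left in which spe-15, fer-1, spe-4, spe-26 and spe-11 lie, while spe-39 lies in the bulk.

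The plot of all features shows where the members sit. From the lowest mean, spe-11 and spe-26 lay within the first 1.18% and 1.47% of the features, and spe-4, fer-1 and spe-15 within 3.68%, 4.20% and 4.28%. The spread of the members between arrays was not uniform. The SDs of spe-15, fer-1 and spe-11 exceeded 7.15%, 10.6% and 12.7% of those of the 923 features at least 8-fold higher in fem-3(gf), whose median SD was 0.43. That of spe-26 exceeded 54.1% of them and that of spe-4 67.0%. No one array was the lowest for all members: prep 1 was for spe-4 and spe-39, prep 2 for fer-1, and prep 3 for spe-15, spe-26 and spe-11.

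The gene spe-10 (AC3.10, chromosome V) encodes a palmitoyltransferase of the DHHC type, which attaches a fatty acid to proteins, and is needed for the fibrous body and membranous organelle to stay together until the spermatid forms. Both spots that list it also list pqn-2, the gene next to it in the RefSeq order, so neither spot can be assigned to one of these genes. One of these spots had log2 ratios of -4.29, -4.04 and -3.72, with a mean of -4.02 ± 0.29 (SD, n = 3). The other had -0.16, 0.02 and 0.23, with a mean of 0.03 ± 0.19. The spots did not overlap, and the values do not say which gene each reports.

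Relatives of the members by protein family lay elsewhere in most cases. The other presenilin genes, sel-12 and hop-1, which act with other subunits as the γ-secretase protease in Notch signalling, were higher in fem-1(lf). Their means were 1.19 ± 0.13 and 1.34 ± 0.22 (SD, n = 3, limma adjusted p = 0.000868 for both). All 4 measured genes of the presenilins and γ-secretase subunits besides spe-4 were called higher in fem-1(lf), against 21.0% of all features. Their median was 1.33, and aph-2, which encodes nicastrin, was the highest at 1.58. Within arrays, spe-4 minus sel-12 was -5.39, -4.11 and -4.58, and spe-4 minus hop-1 was -5.41, -4.66 and -4.47.

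The other myosin VI gene, hum-8, had log2 ratios of -0.25, 0.21 and -0.06, with a mean of -0.04 (limma adjusted p = 0.84). Within arrays spe-15 minus hum-8 was -2.79, -3.46 and -3.23, a mean of -3.16 ± 0.34 (SD, n = 3). All 3 comparisons of a member with a relative had an exact two-sided sign-flip permutation p of 0.25, also after Benjamini-Hochberg adjustment, which is the smallest that 3 arrays allow. The planned pair of spe-5 and vha-12 could not be compared. Of 8 measured unconventional myosin genes besides spe-15, 2 were called higher in fem-1(lf), 1 higher in fem-3(gf) and 5 did not pass. Calls on these sides made up 21.0% and 23.7% of all features, and the difference from the list was not tested. The myosin I gene hum-1 was highest at 1.74 ± 0.14, and hum-2, a myosin V gene, was at 0.50. The member on the fem-3(gf) side, hum-5, also a myosin I gene, was at -0.50, and did not pass in limma after median centring of the arrays, after centring on the body genes, without prep 2 or without prep 3. The call of hum-2 was lost without prep 2 and without prep 3.

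Among 6 genes with kelch repeats besides spe-26, kel-10 lay at the same depth. Its log2 ratios were -4.84, -4.29 and -4.84, with a mean of -4.66 ± 0.31 (SD, n = 3, limma adjusted p = 1.72e-05), against -4.67 for spe-26. The other called genes of this list, kel-3 and kel-20, were higher in fem-1(lf) at 0.89 and 0.63, the latter not called without prep 2, and 3 genes did not pass. Of 12 measured palmitoyltransferases of the DHHC type, the family of spe-10, 3 were higher in fem-3(gf), 1 higher in fem-1(lf) and 8 did not pass. The share on the fem-3(gf) side is near the 23.7% of all features called there. On the fem-1(lf) side the share of all features was 21.0%. The called genes, of which dhhc-13 was named after its value was seen, were dhhc-12 at -4.31 ± 0.29, spe-21, a gene of sperm activation, at -3.02 ± 0.58, dhhc-13 at -2.50 ± 0.16 and dhhc-1 at 0.54, whose call was lost without prep 1 and without prep 3. After centring on the body genes, 6 of the 12 were called higher in fem-1(lf), as were 7523 of the 19719 features.

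**Figure D3:**
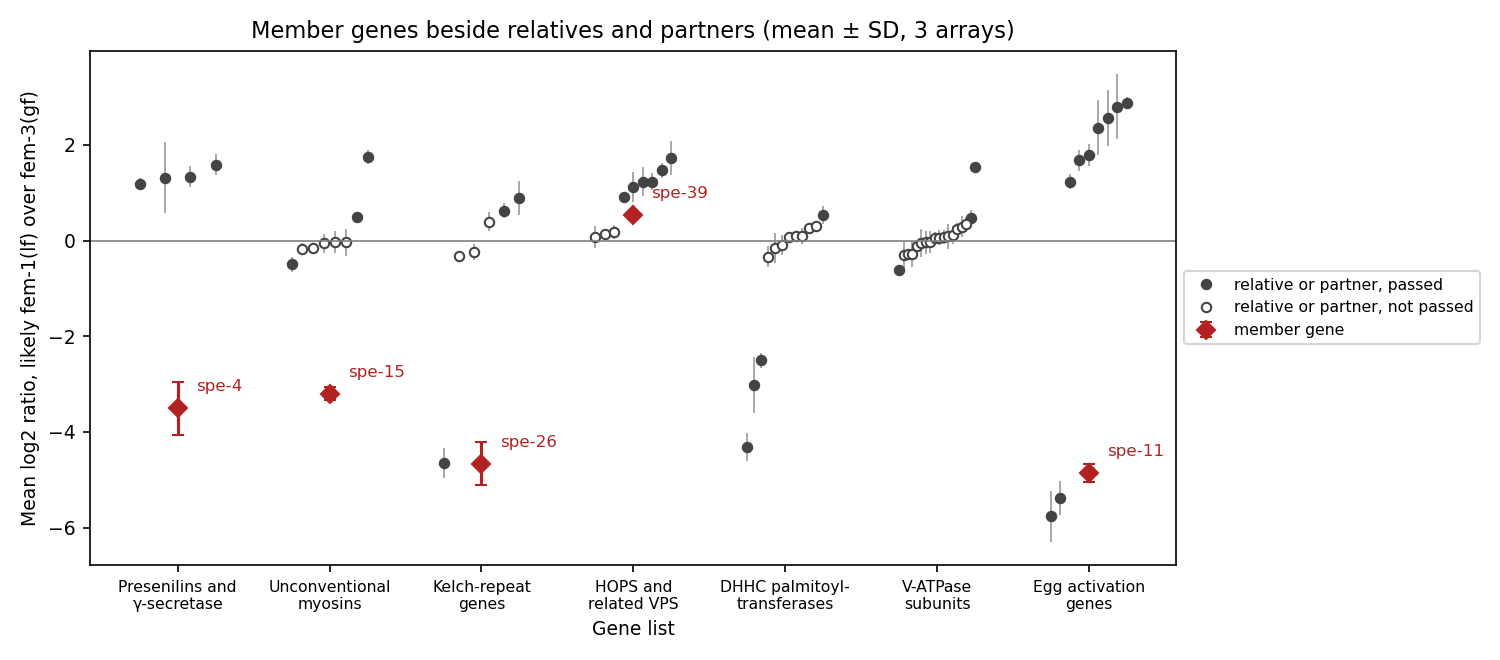
Mean log2 ratio with SD over 3 arrays for member genes (red diamonds) and the genes of 7 lists of relatives or partners (circles, filled where called in limma at an adjusted p under 0.05). The presenilin relatives of spe-4 lie above 0, the myosin relatives of spe-15 lie between -0.50 and 1.74, and kel-10 lies beside spe-26. The mean of spe-39 lies above the HOPS and related genes that were not called and below all those that were.

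The gene spe-5 encodes a B subunit of the V-ATPase, the proton pump that acidifies organelles, and was not analysed here. The B subunit gene vha-12 was at 0.06 ± 0.15 (SD, n = 3, limma adjusted p = 0.72). Of 18 measured V-ATPase genes, 2 were called higher in fem-1(lf), 1 higher in fem-3(gf) and 15 did not pass, and the list median was 0.05. The a subunit gene vha-7 was at 1.55 ± 0.08 and vha-18, which encodes an H subunit, at 0.48, the latter not called without prep 2 or without prep 3. On the other side vha-5, another a subunit gene, was at -0.61, and was not called without prep 3 or after centring on the body genes. That centring gave 8 genes of the list called higher in fem-1(lf), and 7523 of the 19719 features.

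Partners of spe-39 in membrane tethering were in part called on the same side as spe-39. Of 9 measured genes of the HOPS complex and related vacuolar sorting factors, 6 were called higher in fem-1(lf), none was called higher in fem-3(gf) and 3 did not pass in limma, and at an unadjusted p under 0.05 the count on the fem-3(gf) side was also 0. The median was 1.12. Calls on the fem-1(lf) side made up 21.0% of all features and those on the fem-3(gf) side 23.7%, and the difference from the list was not tested. Centring on the body genes put 9 genes of the list on the fem-1(lf) side, and 7523 of the 19719 features. When tested in limma against a 1.5-fold difference, 5 genes of the list kept a call there. The highest were vps-39 at 1.73 ± 0.35 and vps-16 at 1.47 ± 0.15 (SD, n = 3). The gene vps-33.2, whose mammalian counterpart VPS33B binds that of SPE-39, was singled out for that role after its values were seen. It was at 0.15 (limma adjusted p = 0.34), but its 2 spots gave 0.51 and -0.22.

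Egg activation, the process in which spe-11 acts, draws on proteins of the oocyte and of the sperm. Of 9 measured genes of this list, 7 were higher in fem-1(lf) and 2 higher in fem-3(gf). The shares of all features with calls on these sides were 21.0% and 23.7%, and the difference was not tested. On the fem-1(lf) side the highest were chs-1, which makes the chitin of the eggshell, at 2.88 ± 0.13 and egg-2, an oocyte surface protein gene, at 2.80 ± 0.68 (SD, n = 3). On the fem-3(gf) side, with spe-11, were the sperm phosphatase genes gsp-3 at -5.76 ± 0.53 and gsp-4 at -5.39 ± 0.35. They are counted here because they were listed, so the split depends on the choice of genes. A part of gsp-3 and gsp-4 in egg activation was not tested. The gene oops-1, whose oocyte protein binds SPE-11, was singled out for that role after its values were seen and was at 1.79 ± 0.22.

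Other genes of sperm formation and function gave the following counts. Of 4 genes listed for assembly of the fibrous bodies only spe-18 was measured, and it was lower than any of the 6 members, with log2 ratios of -5.97, -5.44 and -5.97 and a fold of 55.4 (limma adjusted p = 1.19e-05). Of 11 measured genes of sperm activation, 8 were called higher in fem-3(gf), 1 higher in fem-1(lf) and 2 did not pass, with a median of -2.46. The activation gene spe-46 was at -5.67 ± 0.85 and the transporter gene snf-10 at -4.20 ± 0.35, whereas the zinc transporter gene zipt-7.1 was at 0.86 ± 0.02 (SD, n = 3). The value of zipt-7.1 averages 2 spots, at 0.85 ± 0.11 and 0.88 ± 0.08. Its call was lost when tested in limma against a 1.5-fold difference. All 5 measured genes of sperm surface and fertilisation proteins were called higher in fem-3(gf), with a median of -1.63, and spe-49 at -2.73 and spe-9 at -2.58 were the lowest of them. Over all features, 23.7% were called higher in fem-3(gf) and 21.0% higher in fem-1(lf). The difference between these sperm gene lists and the members was not tested.

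**Figure D4:**
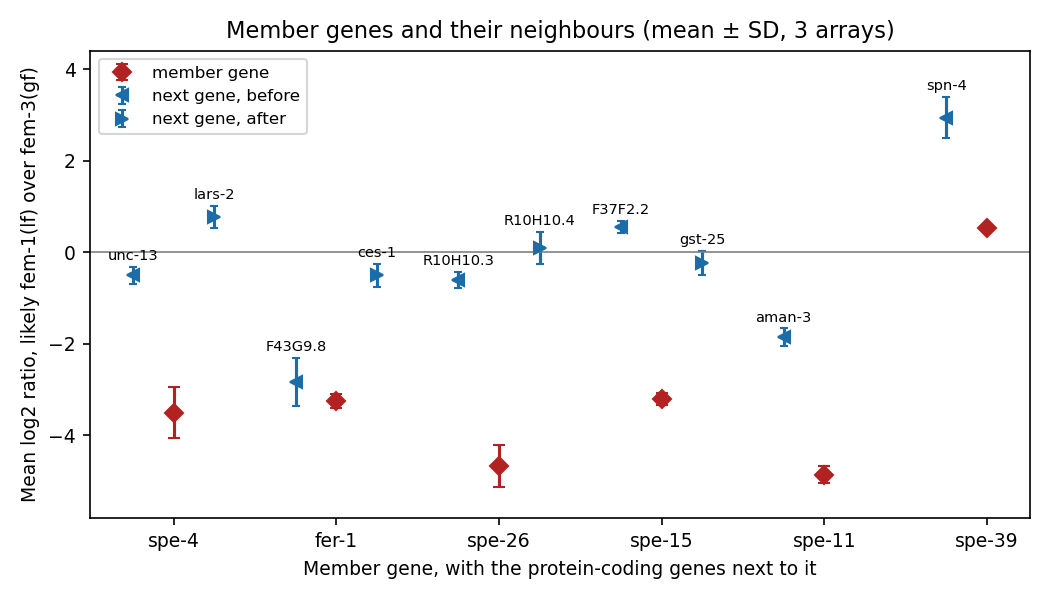
Mean log2 ratio with SD over 3 arrays for each member gene (red diamonds) and the protein-coding genes next to it in the RefSeq order (blue triangles, pointing to the side). The genes next to spe-4, spe-26 and spe-15 lie between -0.60 and 0.77, whereas F43G9.8 lies near fer-1 and spn-4 lies far above spe-39.

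Of the measured genes beside the members on the chromosomes, 7 had means between -0.60 and 0.77. Of the 6 members, 4 are on chromosome I, 1 on IV and 1 on V. Of 12 neighbouring places, 10 held a measured gene, of which 5 were called higher in fem-3(gf) and 3 higher in fem-1(lf). Over all features these shares were 23.7% and 21.0%, and the difference was not tested. Next to fer-1, F43G9.8 had a mean of -2.83 ± 0.52 (SD, n = 3, limma adjusted p = 0.000275), against -3.25 for fer-1, and next to spe-11, the mannosidase-type gene aman-3 had -1.86 ± 0.20. The gene unc-13 beside spe-4, ces-1 beside fer-1 and R10H10.3 beside spe-26 were at -0.51, -0.50 and -0.60, and all these calls were lost after centring on the body genes, and in limma without 1 or more of the arrays. Since unc-13 is itself one of the body genes, that centring moves it towards 0 in part by construction. Beside spe-39 lay spn-4, a maternal RNA-binding regulator and one of the oocyte markers, with log2 ratios of 3.45, 2.63 and 2.74. The genes lars-2 beside spe-4 and F37F2.2 beside spe-15 were at 0.77 and 0.55, the latter not called without prep 2 or without prep 3. The neighbours gst-25 of spe-15 and R10H10.4 of spe-26 did not pass.

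The named genes with the nearest values to each member were found by the largest absolute difference over the 3 arrays, among 14777 genes outside the list. Nearest to spe-11 was alg-3, an Argonaute gene of spermatogenesis, within 0.12 on every array, followed by ssp-34 within 0.18. Nearest to fer-1 were acp-2 within 0.17 and best-12 within 0.18, and best-12 was also the nearest to spe-15, within 0.12, before C03B8.3 within 0.20. For spe-4, which varied most, W01B6.5 and C55A6.4 followed it within 0.10 and 0.14, both with their lowest value on prep 1. For spe-26 the nearest were ZC412.5 within 0.18 and B0261.6 within 0.21, and for spe-39 they were C06E1.9 within 0.02 and C46E10.9 within 0.03. With 3 arrays of 1 comparison, such likeness is a description of size and array spread alone.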

How the data were processed

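The deposited table held 21611 rows with log2 ratios from 3 two-colour arrays. How the authors scaled, centred or background-corrected these log2 values is not given in the sources used here. Base 2 was read from the values: 64205 of 64209 gave whole thousandths as powers of 2 (tolerance 0.01). Array medians were -0.15, -0.07 and -0.07 for preps 1, 2 and 3. Spot intensities were not analysed here, and the number of arrays limits the precision.

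Names came from the platform annotation and RefSeq (WBcel235): 16450 had 1 gene, 247 several and 4914 none. Rows of a gene were averaged, and each member had 1 row. The 19719 features on all arrays were fitted against 0 with limma 3.58.1 in R 4.3.3 (two-sided, Benjamini-Hochberg over all features). The fit was also run on simulated data of 19719 features, with 100 changed by 1 and 100 by 2 (log2), and noise independent between arrays. It recovered 45% and 94% of these, with 5 false among 144 calls. Far fewer features were changed there than were called in the data, so these rates do not describe the fit of the data.

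Members and lists were chosen with earlier results of these data known. Named were all members, family relatives, the 2 largest called genes per side of each list, neighbours and nearest genes. Alternatives were median or body-gene centring, scaling, features on at least 2 arrays, each array left out, a robust variance model, single rows, an adjusted p under 0.01 and limma treat. Lists gave 31 msp genes (30 measured) and 53 body genes (48 measured).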

Additional observations from a re-analysis of the deposited data

How the results depend on the processing

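The calls and directions of fer-1, spe-4, spe-11, spe-15 and spe-26 were kept under all 10 alternatives run for them, with limma adjusted p-values of at most 0.000454. The value of spe-39 stayed above 0 (0.50 to 0.93, and 0.50 to 0.57 with 1 array left out), but its call was lost without prep 2 (0.50), without prep 3 (0.54) and in limma treat against 1.5-fold (0.53, adjusted p = 1), so that there 0 members were called on the fem-1(lf) side, as also at an adjusted p under 0.01. Over all features, the fem-1(lf) side held 4148 calls and that of fem-3(gf) 4667. Centring on the body genes gave 7523 and 2215, treat 1431 and 1813, and an adjusted p under 0.01 gave 2699 and 2543. Leaving out an array gave 2914 to 4031 and 2740 to 4072. The share of calls higher in fem-1(lf) was 47.1% as deposited, 56.6% after median centring and 77.3% after centring on the body genes. Differences between a member and a relative kept their direction without any 1 array: spe-4 minus sel-12 lay between -4.98 and -4.34, spe-4 minus hop-1 between -5.03 and -4.56, and spe-15 minus hum-8 between -3.34 and -3.01. The fit was already paired, since each fitted ratio is taken within 1 array between preps of the same number. With 1 group of arrays, no further pairing was possible. For these changes the cause was not tested.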
